A study of Mus musculus with 23 samples.

Results

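Mas1, Agt, Ace, Agtr1a, Agtr2 and Ren1 encode parts of the renin-angiotensin system, and these 6 genes were followed over 23 arrays of mouse brain. Mas1 was picked because its signal was lower in the hypothalamic region of mice given chocolate, and the other 5 genes were chosen by name for their place in the same pathway. The choice thus used measured values, and the diet difference of these genes in the hypothalamic region is given as a description without a test. All 6 genes were among the 31395 array identifiers left after a filter on dim probes. Each had 1 identifier, and 7 probes read them in all.

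Angiotensinogen, which brain astrocytes secrete, is cleaved by renin, and angiotensin-converting enzyme then trims the product to angiotensin II. Angiotensin II acts through the type 1 and type 2 receptors and is best known in the hypothalamus for thirst, salt appetite and blood pressure. A shorter angiotensin peptide made in a side branch of the pathway is known as a ligand of Mas, a receptor found mainly in forebrain neurons.

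The labels give an age of 5 weeks, which in the study is the age when the experiments began. The mice were female C57BL/6 and carried no engineered allele named in the labels. They ate standard chow (SC, labelled lean) or chose freely between SC and a chocolate mixture (CM, labelled obese) for 8 weeks, and an 11-day battery of behaviour tests followed. RNA from frontal cortex (FC), striatum (ST) and the hypothalamic region (HT) of SC mice L52, L54, L56 and L58 and CM mice O52, O54, O56 and O58 was hybridised to single-colour arrays, 1 array per sample. Each group of diet and region had 4 arrays, apart from CM FC, which had 3 because mouse O52 had no FC array. The values are log2 signals, the log2 of the spot intensity after background correction and quantile normalisation. On each array 36432 to 42261 of 59305 spots were well above background by the flag of the scanner software, and no spot was saturated.

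The sample labels call the HT tissue a thalamic region, while the protocol and the study name the hypothalamus. The 8 HT arrays carried markers of both tissues. The log2 signal of Hcrt, the hypothalamic orexin precursor, lay between 13.05 and 16.73 on HT arrays and between 7.46 and 10.10 on FC arrays. It lay between 6.73 and 10.92 on ST arrays apart from SC mouse L52, whose ST array had 15.45. The log2 signal of Prkcd, a thalamic marker, lay between 11.62 and 14.05 in HT, against 8.19 to 8.54 in FC and 8.07 to 11.71 in ST. The summed striatal markers (log2 of the sum) separated ST, at 18.19 to 19.03, from FC, at 14.52 to 16.70, and HT, at 14.57 to 16.06. Neurod6, a cortical neuron marker, had log2 signals of 10.19 to 12.06 in FC, 6.60 to 10.72 in ST and 4.75 to 7.42 in HT. The HT arrays of L54 and O58 stood apart, with summed hypothalamic markers of 14.96 and 15.58 against 17.42 to 18.30 on the other 6, and that of L54 had the highest striatal sum in HT (16.06). These 2 arrays also had the lowest HT signals of Agt, and that of L54 the lowest HT signal of Agtr2. The part of the marker differences in those values was not tested.

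The arrays were spread over 3 slides, and slide followed group. Slide 1 held all 4 CM ST arrays, slide 2 all 4 CM HT arrays and slide 3 all 3 CM FC arrays. The SC arrays were divided over the slides: FC had 3 on slide 1 and 1 on slide 2, ST had 1 on slide 1, 2 on slide 2 and 1 on slide 3, and HT had 1 on slide 2 and 3 on slide 3. No slide held FC arrays of both diets, so in FC the diet and the slide cannot be told apart within a slide. Each tested difference below comes from a limma model over all 23 arrays. The model weights each array, so a fitted difference can depart from the difference of the plain group means. For the 6 genes, the value from the same model with slide as a fixed term stands beside the tested one where slide ended a call, turned the direction or moved the value by over 1.5 times. For the wider lists, the number of calls with slide is given. A change was called at an adjusted p under 0.05 over all 31395 identifiers. These are bulk tissue samples, in which fewer cells of a type and less RNA per cell cannot be told apart.

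**Figure D1:**
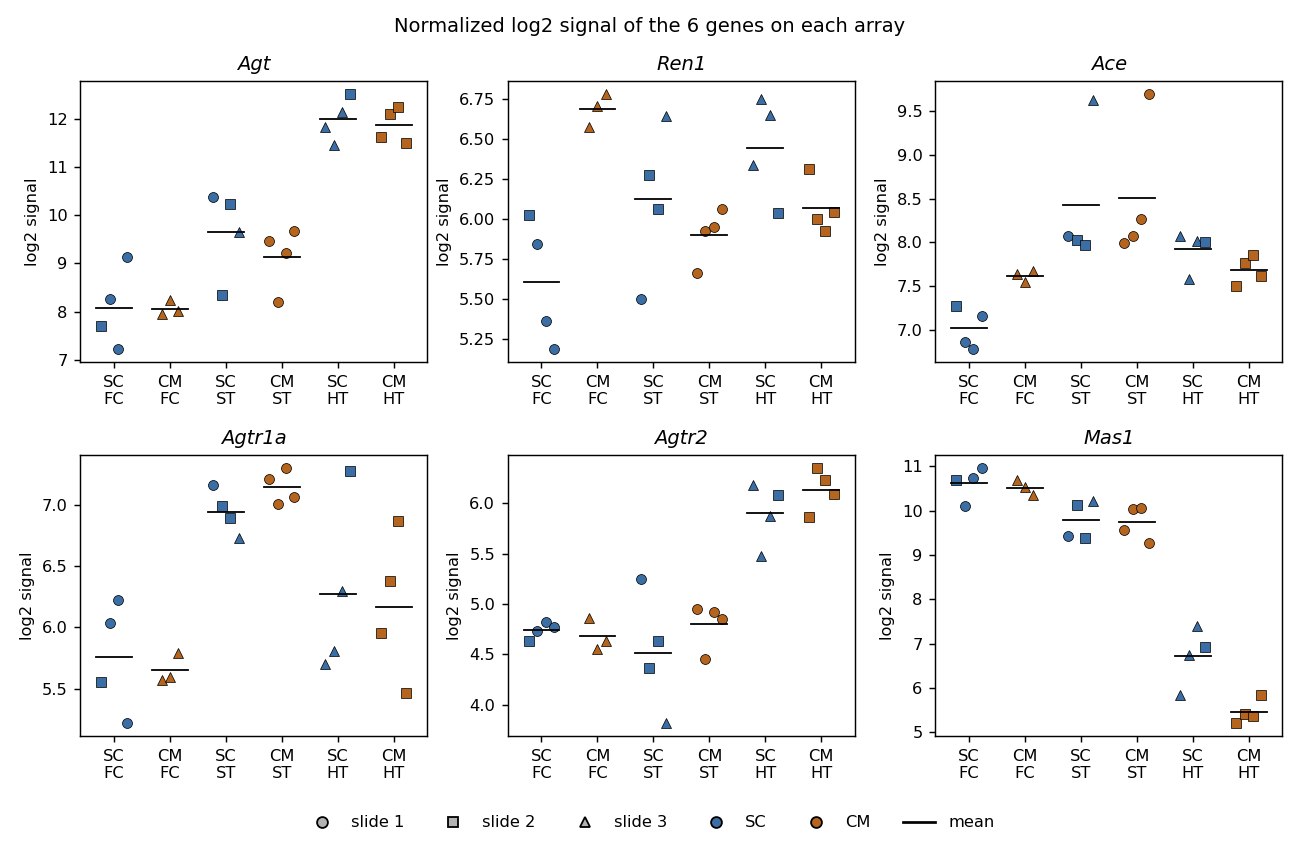
Log2 signal of the 6 genes on each of the 23 arrays, by region and diet, with SC in blue and CM in orange, the marker shape giving the slide and the line giving the group mean. Mas1 was lowest and Agt highest in HT, and the 8 Mas1 values in HT ran from 5.20 to 7.39.

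Agt, which encodes angiotensinogen, the substrate of the pathway, was read by 1 probe at mm9 chr8:127083142-127083201 on the minus strand. In SC HT its log2 signals were 11.83, 11.45, 12.14 and 12.52 in mice L52, L54, L56 and L58, and in CM HT they were 11.62, 12.10, 12.24 and 11.49 in mice O52, O54, O56 and O58. In SC ST they were 10.38, 8.35, 10.22 and 9.64, and in CM ST 9.46, 8.19, 9.22 and 9.67, in the same order of mice. In SC FC they were 7.70, 8.27, 7.22 and 9.13, and in CM FC 7.94, 8.23 and 8.01 in O54, O56 and O58. Every HT array was above every ST and FC array, while ST and FC overlapped and the diets overlapped in each region. The SC group means were 11.98 ± 0.45 in HT, 9.65 ± 0.92 in ST and 8.08 ± 0.82 in FC (SD, n = 4 each).

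Agt was higher in HT than in FC by 3.93 ± 0.44 log2 units (SE) in SC mice, which is 15.3-fold, with an adjusted p of 1.29e-06. With slide in the model this was 4.74 ± 0.82 (adjusted p = 8.73e-04). HT exceeded ST by 2.27 ± 0.47 in SC mice (adjusted p = 0.00142), and in CM mice HT exceeded FC by 3.86 ± 0.30 (adjusted p = 1.25e-09) and ST by 2.81 ± 0.31 (adjusted p = 2.56e-07). With slide these 3 differences were 2.56 (adjusted p = 0.0155), 3.55 (adjusted p = 0.00318) and 3.31 (adjusted p = 9.35e-04). ST exceeded FC by 1.66 ± 0.52 in SC mice (adjusted p = 0.0366), a call that was lost without the ST array of L52 (adjusted p = 0.146) or L56 (0.70 log2 units, adjusted p = 0.470), or without the FC array of L52 (adjusted p = 0.0519) or L56 (1.03 log2 units, adjusted p = 0.224). In CM mice ST exceeded FC by 1.05 ± 0.32 (adjusted p = 0.00781), which was 0.24 with slide (adjusted p = 0.937).

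The ST arrays of L52 and L56, which had the 2 highest Agt signals in ST, also had the highest thalamic markers there. All 8 genes of the thalamic list were measured, and the log2 of their summed signal was 13.79, 11.999, 13.32 and 11.90 on the ST arrays of L52, L54, L56 and L58 and 12.73, 12.38, 12.25 and 13.20 on those of O52, O54, O56 and O58. Rora had the highest signal of that list on 7 of these arrays and Prkcd on that of L56. Mean Rora signals were 10.94 in SC ST and 10.98 in SC FC, and 1 Lhx9 identifier went down to 3.56 in SC ST. The summed hypothalamic signal was 16.73 on the ST array of L52, the one with high Hcrt, and 13.40 on that of L56. The part of such tissue in the ST values of Agt was not tested.

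The chocolate diet gave no called change of Agt. The CM minus SC difference was 0.032 ± 0.40 log2 units in FC (adjusted p = 0.962) and -0.58 ± 0.44 in ST (adjusted p = 0.444), with plain group means of 8.06 in CM and 8.08 in SC mice in FC. With slide these were 0.92 (adjusted p = 0.912) and -1.01, neither called. Leaving out 1 array at a time gave -0.60 to 0.59 in FC. In ST it gave -1.07 without L54 (adjusted p = 0.0471) and 0.37 without L56 (adjusted p = 0.634). In HT the difference was -0.037 ± 0.34, and -0.26 with slide. It ran from -0.26 to 0.11 with single arrays left out. Likeness, here and for the genes below, was compared over 17923 of the 31395 identifiers. The 3 genes whose log2 signals were most like Agt over the 23 arrays were Sparc (Pearson r = 0.98), Gdpd2 (r = 0.97) and Sncg (r = 0.97), over arrays that share regions, slides and mice.

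Ren1 encodes renin, the protease that starts the pathway, and was read by 1 probe at mm9 chr1:135250782-135250841 on the plus strand. In SC FC its log2 signals were 6.03, 5.85, 5.36 and 5.19 in L52, L54, L56 and L58, and in CM FC they were 6.58, 6.71 and 6.78 in O54, O56 and O58. In SC ST they were 5.51, 6.28, 6.07 and 6.65, and in CM ST 5.66, 5.93, 5.95 and 6.06. In SC HT they were 6.34, 6.75, 6.65 and 6.04, and in CM HT 6.31, 6.0, 5.93 and 6.05. All 3 CM FC arrays were above the 4 SC FC arrays, and the diets overlapped in ST and in HT. The signal was low: in SC FC, 3 of 4 arrays were well above background, whereas all arrays of the other groups were.

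In FC, Ren1 was higher in CM than in SC mice by 1.19 ± 0.17 log2 units (SE), a 2.28-fold difference with an adjusted p of 7.36e-05. The difference between the diet effects in FC and ST was 1.42 ± 0.26 (adjusted p = 3.66e-04). With slide in the model, the FC diet difference was 0.10 ± 0.27 (adjusted p = 0.988) and this difference between regions was -0.25, not called. The 7 arrays of slide 3 had Ren1 log2 signals of 6.34 to 6.78, above the 8 arrays of slide 2, at 5.93 to 6.31, and the 8 arrays of slide 1, at 5.19 to 6.06. Slide 3 held FC arrays of CM mice, an ST array of an SC mouse and HT arrays of SC mice, and on it the diets and regions overlapped. The CM FC arrays had 41481 to 42261 spots well above background, against 36432 to 38472 on the SC FC arrays. Which part of the FC difference belonged to diet was not tested apart from the fit with slide.

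**Figure D2:**
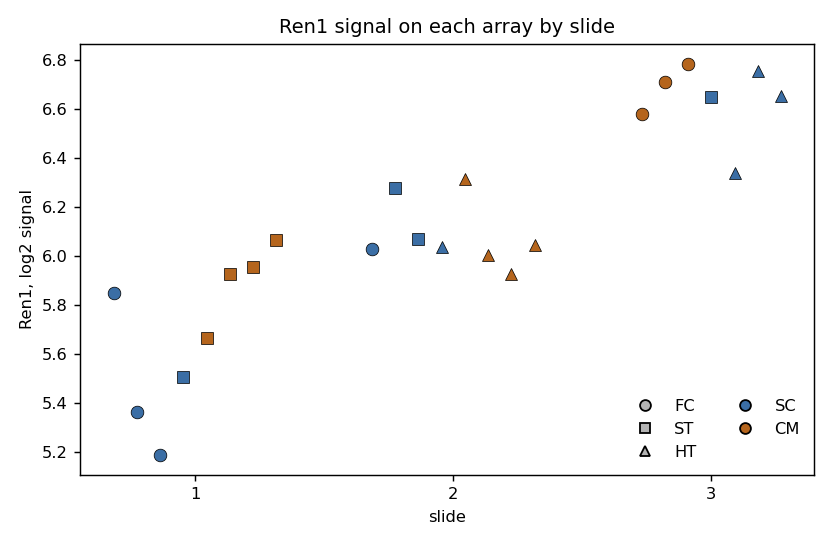
Log2 signal of Ren1 on each of the 23 arrays by slide, with the marker shape giving the region and blue and orange giving SC and CM. All 7 arrays of slide 3 lie at or above 6.34, and no array of slides 1 and 2 lies above 6.31.

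Between regions of SC mice, Ren1 was higher in HT than in FC by 1.03 ± 0.19 log2 units (adjusted p = 1.99e-04), which was 0.0245 with slide (adjusted p = 0.972). ST minus FC was 0.61 (adjusted p = 0.0634; with slide 0.094) and passed without the ST array (adjusted p = 0.0292) or the FC array of L52 (adjusted p = 0.0393). HT minus ST was 0.41 (adjusted p = 0.153; with slide -0.070). In CM mice Ren1 was lower in ST than in FC by a log2 difference of -0.81 (adjusted p = 3.34e-05), whose sign turned to 0.35 with slide (adjusted p = 0.588), and HT minus FC was -0.65 (adjusted p = 1.80e-04), or -0.10 with slide (adjusted p = 0.850). The CM minus SC difference of Ren1 was -0.23 ± 0.19 in ST (adjusted p = 0.469) and -0.48 ± 0.14 in HT. With slide these were 0.36 and -0.025. The 3 named genes most like Ren1 over the 23 arrays were Olfr704 (r = 0.92), Vmn2r62 (r = 0.92) and 1700028E10Rik (r = 0.91). Olfr704, an olfactory receptor gene, had median log2 signals of 5.53, 6.41 and 7.33 on slides 1, 2 and 3.

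Ace encodes the angiotensin-converting enzyme, a peptidase of vessel walls and choroid plexus, and was read by 1 probe at mm9 chr11:105850398-105850457 on the plus strand. In SC ST its log2 signals were 8.07, 8.03, 7.97 and 9.63 in L52, L54, L56 and L58, and in CM ST they were 7.99, 8.08, 8.27 and 9.70 in O52, O54, O56 and O58. In SC FC they were 7.27, 6.86, 6.78 and 7.16, and in CM FC 7.64, 7.54 and 7.67 in O54, O56 and O58. In SC HT they were 8.08, 7.58, 8.02 and 8.01, and in CM HT 7.51, 7.76, 7.86 and 7.62. The ST arrays of L58 and O58 stood more than 1 log2 unit above the other ST arrays, and every ST array was above every FC array. In FC the 3 CM arrays lay above the 4 SC arrays.

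In SC mice, Ace was higher in ST than in FC by 1.21 ± 0.37 log2 units (SE; 2.31-fold, adjusted p = 0.0329) and higher in HT than in FC by 0.96 ± 0.31 (adjusted p = 0.0185). With slide these differences were 1.06 (adjusted p = 0.0850) and 0.12 (adjusted p = 0.931), so neither was called. The ST call was also lost without the FC array of L54 (adjusted p = 0.0627) or L56 (adjusted p = 0.0967), or the ST array of L56 (adjusted p = 0.0643) or L58 (adjusted p = 0.0593), and the HT call without the FC array of L56 (0.82 log2 units, adjusted p = 0.0787). HT minus ST was -0.25 in SC mice (adjusted p = 0.668; with slide -0.93, adjusted p = 0.227). In CM mice ST exceeded FC by 0.76 (adjusted p = 0.00684; with slide 1.73, adjusted p = 0.131), and HT was below ST with a difference of -0.65 (adjusted p = 0.0169; with slide -0.92, adjusted p = 0.158), which was -0.41 without the outlying ST array of O58. The CM minus SC difference was 0.65 ± 0.29 in FC (adjusted p = 0.0955; with slide -0.27), 0.20 ± 0.31 in ST (adjusted p = 0.739; with slide 0.41) and -0.21 ± 0.24 in HT, where slide turned it to 0.42. The ST value turned to -0.047 without the ST array of O58.

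Markers of the choroid plexus, a tissue known to express Ace, were high on the same ST array of O58. All 9 genes of the choroid plexus list were measured, and the log2 of their summed signal was 18.36 on that array, against 11.52 to 14.34 on the other ST arrays. Ttr, the transthyretin gene and the one of highest signal in the list, reached 18.21 there, and Kcnj13 reached 12.85, Kl 11.69, Folr1 11.59 and Aqp1 11.20. On the ST array of L58, the other high Ace value, Ttr was 14.16, but Folr1 was 7.43, Kcnj13 7.31, Kl 6.81 and Aqp1 6.39. The part of the choroid plexus in the Ace values was not tested. The 3 genes most like Ace were Pttg1ip (r = 0.81), Shkbp1 (r = 0.80) and 1190005I06Rik (r = 0.80).

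**Figure D3:**
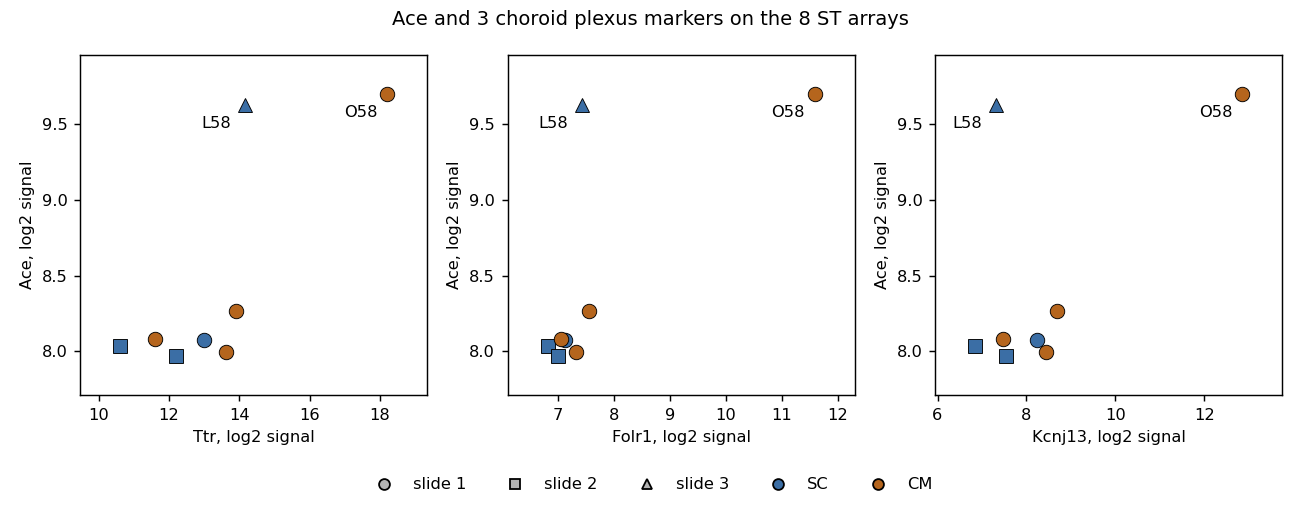
Log2 signal of Ace against that of the choroid plexus markers Ttr, Folr1 and Kcnj13 on the 8 ST arrays, with marker shape giving the slide and blue and orange giving SC and CM. The array of O58, with Ace at 9.70, is far to the right in each panel, whereas that of L58, with Ace at 9.63, is among the other arrays in Folr1 and Kcnj13.

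Agtr1a encodes the type 1 angiotensin II receptor, which carries most of the known actions of the peptide on drinking and blood pressure, and was read by 1 probe at mm9 chr13:30474638-30474697 on the plus strand. In SC ST its log2 signals were 7.16, 6.98, 6.89 and 6.73 in L52, L54, L56 and L58, and in CM ST they were 7.21, 7.0, 7.30 and 7.06 in O52, O54, O56 and O58. In SC FC they were 5.56, 6.04, 6.22 and 5.22, and in CM FC 5.58, 5.59 and 5.79 in O54, O56 and O58. In SC HT they were 5.70, 5.81, 6.30 and 7.27, and in CM HT 5.96, 6.38, 6.87 and 5.47. Every ST array was above every FC array, and the HT arrays overlapped with both. The 2 highest HT arrays, those of L58 and O56, also had the highest log2 signals of Agrp, at 10.89 and 8.97, and of Pomc, at 12.80 and 11.88. Agrp and Pomc mark arcuate neurons of the hypothalamus, and their part in the Agtr1a values was not tested.

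In CM mice, Agtr1a was higher in ST than in FC by 1.52 ± 0.25 log2 units (SE; 2.87-fold, adjusted p = 3.05e-05), which was 0.54 with slide (adjusted p = 0.740). In SC mice the same difference was 1.11 ± 0.41 (adjusted p = 0.0709), and with slide it was 1.35 ± 0.39 and passed (adjusted p = 0.0321), as it did without the ST array of L54 (adjusted p = 0.0431) or the FC array of L56 (adjusted p = 0.0406). HT exceeded FC by 0.64 in CM mice (adjusted p = 0.0238), a call lost with slide (-0.10, adjusted p = 0.944) and without the FC array of O54 (adjusted p = 0.0763) or O56 (adjusted p = 0.0746). It was also lost without the HT array of O54 (0.41, adjusted p = 0.187) or O56 (0.28, adjusted p = 0.288). HT was below ST with a difference of -0.88 in CM mice (adjusted p = 0.00462; with slide -0.64, adjusted p = 0.375). In SC mice HT minus FC was 0.41 (adjusted p = 0.361; with slide 1.15, adjusted p = 0.221) and HT minus ST was -0.71 (adjusted p = 0.195; with slide -0.20, adjusted p = 0.880). With single arrays left out the former ran from 0.14 to 0.73 and was never called. The CM minus SC difference was -0.18 ± 0.31 in FC (adjusted p = 0.709), 0.23 ± 0.35 in ST (adjusted p = 0.725) and 0.057 ± 0.26 in HT, and slide turned the sign of each, to 0.72, -0.084 and -0.52. In HT the plain group means ran the other way as well, with 6.17 in CM and 6.27 in SC mice. The fitted HT difference ran from -0.31 to 0.27 with single arrays left out. The genes most like Agtr1a were DXBay18 (r = 0.92), Gm5640 (r = 0.90) and Gm5639 (r = 0.88).

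Agtr2 encodes the type 2 angiotensin II receptor, often described as opposing the type 1 receptor, and was read by 1 probe at mm9 chrX:21065564-21065623 on the plus strand. In SC HT its log2 signals were 6.18, 5.47, 5.88 and 6.09 in L52, L54, L56 and L58, and in CM HT they were 5.87, 6.35, 6.24 and 6.10 in O52, O54, O56 and O58. In SC FC they were 4.63, 4.73, 4.82 and 4.77, and in CM FC 4.86, 4.55 and 4.63 in O54, O56 and O58. In SC ST they were 5.25, 4.37, 4.64 and 3.82, and in CM ST 4.96, 4.46, 4.92 and 4.86. Every HT array was above every FC and ST array, and the diets overlapped in each region. Agtr2 was well above background on all 8 HT arrays, on 1 of 4 in SC ST, on 1 of 3 in CM FC and on 0 arrays of SC FC and CM ST, by the flag of the scanner software. The size of a fold against those dim groups is therefore uncertain.

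In SC mice Agtr2 was higher in HT than in FC (adjusted p = 1.62e-04; with slide 1.06e-03 and the same direction), 2.24-fold by plain group means and 2.15-fold as fitted. In CM mice it was higher in HT than in ST (adjusted p = 7.35e-08; with slide 7.44e-05), 2.53-fold by plain group means and 2.57-fold as fitted. Over the alternative settings these differences ran from 0.49 to 2.46 and from 0.64 to 2.39 log2 units. HT was also above ST in SC mice (adjusted p = 1.11e-04; with slide 3.92e-04) and above FC in CM mice (adjusted p = 7.19e-09; with slide 0.0365, and with the mouse number as a further block 0.0556, not called). No size is given because the dimmer signals were mostly within background. ST minus FC was -0.20 in SC mice (adjusted p = 0.607; with slide 0.17), also on such signals. The CM minus SC difference was -0.092 ± 0.18 in FC (adjusted p = 0.733) and 0.25 ± 0.20 in ST (adjusted p = 0.446), both mostly within background, and 0.31 ± 0.15 in HT. With slide these were 0.79, -0.20 and -0.14. The genes most like Agtr2 were Aard (r = 0.97), Cables1 (r = 0.96) and Tmem29 (r = 0.96).

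Mas1 encodes the receptor Mas and was read by 2 probes of 60 bases that overlap, at mm9 chr17:13033943-13034002 and chr17:13033918-13033977 on the minus strand. They share 35 bases, so they are not independent readings of the transcript. A stretch of 30 shared bases is shown because both probes read it, with the hexamer AATAAA, the common polyadenylation signal, in capitals.
Mas1 shared probe stretch: ttgtcaaagttcAATAAAtatccatctctc
The hexamer is found as written in 10% of the 55602 different 60-base probe sequences of the array, and on either strand in 13.4% of them. A match does not show that the site is used.

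In SC HT the Mas1 log2 signals were 5.84, 6.73, 7.39 and 6.92 in mice L52, L54, L56 and L58, and in CM HT they were 5.20, 5.41, 5.37 and 5.83 in O52, O54, O56 and O58. All 4 CM values were below all 4 SC values, by a narrow margin between O58 and L52. The group means were 6.72 ± 0.65 in SC HT and 5.45 ± 0.27 in CM HT (SD, n = 4 each). The fitted difference was -1.44 ± 0.23 log2 units (SE), that is, 2.70-fold lower in CM, and with slide -1.20 ± 0.50. On slide 2, which held 1 SC and 4 CM arrays of HT, the SC value was 6.92 and the CM mean 5.45. That SC array, of L58, had the lowest summed thalamic markers in HT (14.32, against 15.29 to 15.76 on the others). It also had the highest summed hypothalamic markers (18.30), and their part in its Mas1 value was not tested. Leaving out 1 HT array at a time gave -1.74 to -0.97, the smallest size without L56, the SC array with the highest Mas1 signal. With a background offset of 50, which compresses low signals, the difference was -0.90.

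Each Mas1 probe was lower in CM HT, with group mean differences of -1.50 and -1.03. The former was well above background on all 8 HT arrays and the latter on 4 of 4 in SC and 3 of 4 in CM. By the study's rule for HT, a 1.5-fold change with an adjusted p under 0.05, 56 identifiers or 0.178% of the 31395 were called, and 52 of them were lower in CM. At that adjusted p without the fold, 135 identifiers or 0.43% were called. Ordered by size among the 56, the fall of Mas1 ranked 3. The identifier just inside the fold limit was Ffar3, with a log2 difference of -0.59, and just outside it was an unnamed transcribed region with -0.58. These values chose Mas1, and nothing is read from them.

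Markers of forebrain tissue were examined on the same HT arrays because Mas1 was higher in FC and ST. All 10 identifiers of the striatal list were lower in CM HT (median log2 difference -0.27), and 7 of 10 of the cortical list were (median -0.16). Of the hypothalamic list 5 of 13 were lower (median 0.16), and of the thalamic list 2 of 12 (median 0.18). The log2 of the summed striatal signal was 14.65, 16.06, 14.87 and 15.38 in L52, L54, L56 and L58 and 14.57, 14.90, 14.93 and 15.25 in O52, O54, O56 and O58. Penk had the highest signal of the striatal list on every one of these arrays. The diets overlapped, and L54, the highest, did not have the highest Mas1 signal.

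The log2 of the summed cortical signal was 12.67, 12.99, 13.04 and 12.42 in SC HT and 13.07, 12.79, 12.78 and 13.14 in CM HT, in the same order, with Rorb the gene of highest signal. L56, with the highest Mas1 signal in HT, also had the highest Neurod6 (7.42), Emx1 (6.33) and Tbr1 (8.22) signals of the 8 HT arrays, and the highest at 1 of 2 Cux2 identifiers. Other cortical genes peaked elsewhere: Rorb, at its brighter identifier, on O58 (12.19, against 11.94 on L56), Slc17a7 on O52 (8.96, against 8.88 on L56) and Fezf2 on L58 (6.42, against 6.10 on L56). FC arrays had far higher values of Neurod6, Emx1 and Tbr1 than HT arrays, but not of Rorb, which led the sum. Emx1 separated the diets in HT, at 5.02 to 6.33 in SC and 4.68 to 4.89 in CM mice, and the mean log2 signal over the cortical list was 8.30 on L56 and at most 7.79 on the other HT arrays. The part of forebrain tissue in the HT difference of Mas1 was not tested.

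**Figure D4:**
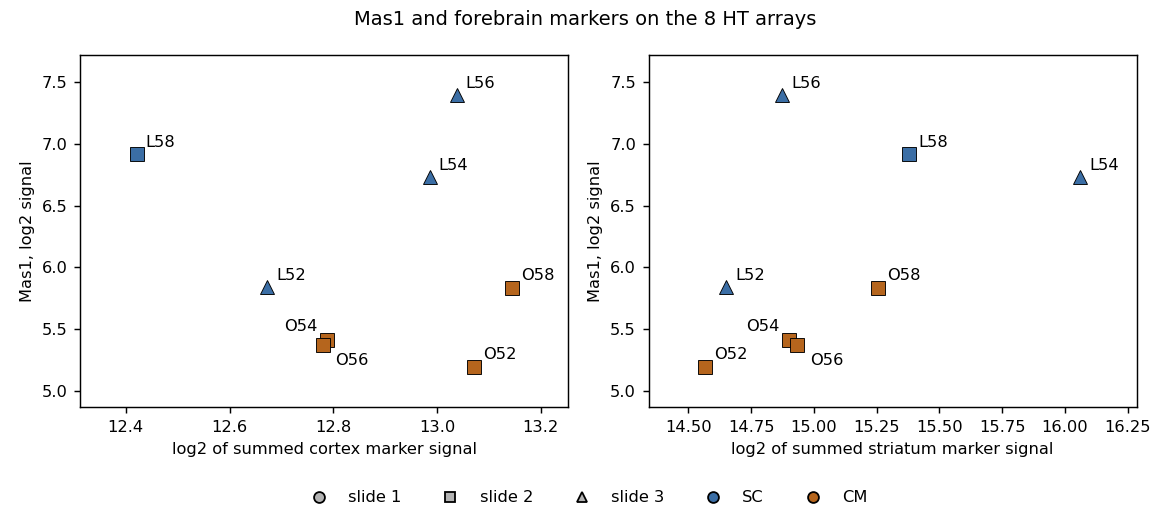
Log2 signal of Mas1 on the 8 HT arrays against the log2 of the summed cortex (left) and striatum (right) marker signals, with mice named, marker shape giving the slide and blue and orange giving SC and CM. The CM arrays lie between 5.20 and 5.83 in Mas1, and the diets overlap in both marker sums.

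In SC FC the Mas1 log2 signals were 10.69, 10.11, 10.73 and 10.97 in L52, L54, L56 and L58, and in CM FC they were 10.69, 10.52 and 10.35 in O54, O56 and O58. In SC ST they were 9.43, 10.14, 9.38 and 10.23, and in CM ST 9.57, 10.04, 10.06 and 9.27. The diets overlapped in FC and in ST. CM minus SC was -0.13 ± 0.28 log2 units in FC (SE; adjusted p = 0.766; with slide -0.51) and 0.12 ± 0.31 in ST (adjusted p = 0.855; with slide 0.24). In ST the plain group means ran the other way, with 9.74 in CM and 9.79 in SC mice, and the sign of the fitted value turned without L52 (-0.064), L56 (-0.26) or O56 (-0.038). Thus a change in either region was not detected, which does not show that there was none. The difference between these 2 diet effects was -0.24 ± 0.42 (adjusted p = 0.693; with slide -0.75). The differences between the diet effect in HT and those in FC and ST, -1.31 ± 0.37 (with slide -0.69) and -1.55 ± 0.39, rest on the arrays that chose Mas1 and were not tested.

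Mas1 signals were highest in FC, next in ST and lowest in HT, and FC and ST overlapped slightly. On the ST arrays the log2 of the summed cortical signal was 12.66, 13.80, 12.45 and 13.33 in L52, L54, L56 and L58 and 12.86, 13.02, 12.90 and 12.21 in O52, O54, O56 and O58, against 13.87 to 14.55 on FC arrays. L54 and L58, with the highest sums in ST, also had the highest Mas1 signals there, and O58 had the lowest of both. Slc17a7 had the highest signal of the list on L54 and L58 and Rorb on the other ST arrays. The part of cortical tissue in the ST values of Mas1 was not tested. In SC mice ST minus FC was -0.99 ± 0.36 log2 units (adjusted p = 0.0685; with slide -1.08, adjusted p = 0.0802), and without the ST array of L54 it was -1.21 (adjusted p = 0.0112). In CM mice ST was below FC with a difference of -0.75 ± 0.22 (adjusted p = 0.00627), which was -0.33 with slide (adjusted p = 0.856). HT minus FC was -3.79 ± 0.31 in SC and -5.09 ± 0.21 in CM mice, and HT minus ST was -2.79 ± 0.33 and -4.34 ± 0.22, given without a test. The genes most like Mas1 over the 23 arrays were Psd (r = 0.99), Synpo (r = 0.98) and Gas7 (r = 0.98), all of which were also lower on every HT array than on any FC or ST array.

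**Figure D5:**
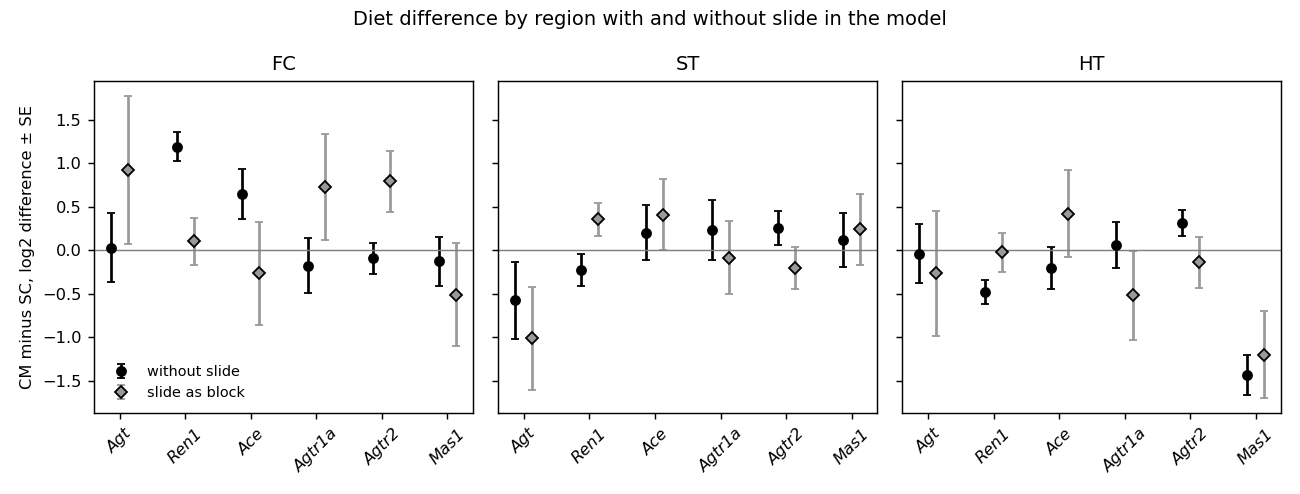
Fitted CM minus SC difference in log2 units for the 6 genes in FC, ST and HT, with bars giving the standard error, from the model without and with slide. The Ren1 difference in FC was 1.19 without and 0.10 with slide, and the Mas1 difference in HT was -1.44 and -1.20.

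Of the 5 genes on either side of Mas1 in the reference gene table, Igf2r, Airn, Pnldc1, Mrpl18 and Tcp1 were measured. Mrgprh, the nearest on one flank, was on the array but did not pass the filter, and Gm16574, Gm7162, Gm17592 and LOC115488839 were not on the array by name. The HT diet differences of the measured neighbours lay between -0.10 and 0.19 log2 units. Of all identifiers, 28.6% were called for diet in FC and 9.82% in ST. In FC and ST the neighbour with a called diet change was Airn, a noncoding RNA, at 1 of its 3 identifiers, with 0.71 in FC (adjusted p = 3.68e-04) and -0.50 in ST (adjusted p = 0.0264). With slide in the model neither was called, as 0 of all 31395 identifiers were called for diet in FC or in ST.

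The wider renin-angiotensin list held 23 genes, the 6 above included, of which 21 passed the filter with 22 identifiers, while Cma1 and Mrgprd did not pass. On the chocolate diet in FC, 5 of 22 identifiers were called, 2 higher and 3 lower, against 28.6% of all identifiers. Without the FC array of L56, L58 or O54 the count was 3. On the same FC arrays all 10 identifiers of the striatal list were lower in CM (median log2 difference -1.06, 1 of them called; with slide -0.17). The log2 of their summed signal was 14.61, 16.47, 16.70 and 16.64 in L52, L54, L56 and L58 and 14.52, 14.81 and 16.66 in O54, O56 and O58, with Penk the gene of highest signal. Only 2 of the 5 genes of a pituitary list passed the filter, Lhb and Gh, and both were called higher (median 1.34; with slide 0.32). Gh was dim, with mean log2 signals of 4.54 in SC FC and 5.01 in CM FC. Of the choroid plexus list 7 of 9 were lower (median -0.75; with slide -0.075), and of the hypothalamic list 9 of 13 (median -0.42; with slide 1.53). Of the cortical list 8 of 10 were higher (median 0.19; with slide -0.23). The part of striatal or other tissue in the FC diet differences was not tested. In the renin-angiotensin list, the higher besides Ren1 was Ctsg, the mast cell and neutrophil protease cathepsin G (adjusted p = 0.0106), with no size given because 2 of 4 SC FC arrays were well above background. Lower were 2 identifiers of Prcp, a carboxypeptidase that cleaves angiotensin II (-0.57, adjusted p = 0.00850, and -0.30, adjusted p = 0.0392), and Enpep, the aminopeptidase that degrades it (-0.43, adjusted p = 0.0339). Single arrays ended several of these calls. That of Enpep was lost without L54 (adjusted p = 0.0558), L58 (adjusted p = 0.0808) or O54 (adjusted p = 0.0919), and that of the former Prcp identifier without L56 (adjusted p = 0.0796). The latter Prcp identifier lost it without L56 (adjusted p = 0.0774), L58 (adjusted p = 0.0720), O54 (adjusted p = 0.0531) or O58 (adjusted p = 0.0808). The list's median difference was -0.093, beside -0.037 over all identifiers. By the study's rule for FC, a 2-fold change with an adjusted p under 0.01, 1 of the 22 was called, Ren1, against 2.94% of all. With slide in the limma model 0 of 22 were called in FC, as were 0 of all 31395. At an unadjusted p under 0.05 there were 3 of the 22 and 2219 of all. Prcp turned to 0.28 at the former of its identifiers.

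In ST the limma model called 0 of 22 identifiers for diet, with 4 at an unadjusted p under 0.05, against 9.82% of all called. Without the ST array of L54 the count called was 4, and without that of L56 or L58 it was 1. The list's median was 0.17 and that of all identifiers 0.029. For the difference between the diet effects in FC and ST, 5 of 22 were called, 3 higher and 2 lower, against 30.1% of all. The higher were Ren1, Ctsg (adjusted p = 0.0150, with no size given because 1 of 4 CM ST arrays was well above background) and Atp6ap2, which encodes the prorenin receptor (0.48, adjusted p = 0.0168). Prcp was among the lower at the brighter of its 2 identifiers (-0.93, adjusted p = 0.00513). The other had mean log2 signals of 7.34 in CM FC and 7.59 in SC FC, and of 7.31 in CM ST and 7.46 in SC ST. With slide the limma model called 0 of these 22 and 0 of all 31395, with 1 of the 22 and 1468 of all at an unadjusted p under 0.05. The signs of Atp6ap2 (-0.15) and Prcp (0.44) turned.

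In SC mice ST against FC gave 4 of 22, against 14.9% of all: Mme, Agt and Ace were higher in ST, and Lnpep, an aminopeptidase, was lower (-0.48, adjusted p = 0.0313). This count was 1 without the ST array of L56 and 7 without that of L54. The call of Lnpep was lost with slide (-0.34, adjusted p = 0.163) and without the ST array of L52 (adjusted p = 0.0645) or L56 (-0.23, adjusted p = 0.413) or the FC array of L54 (adjusted p = 0.0538) or L56 (adjusted p = 0.159). Mme encodes neprilysin, a peptidase that cleaves angiotensin peptides, and was higher in ST by 1.99 log2 units (adjusted p = 3.61e-04; with slide 2.29). In SC FC 1 of its 2 probes was well above background on 1 of 4 arrays and the other on all 4. HT against FC gave 13 of 21, 7 higher and 6 lower, against 43.2% of all. Mas1 was left out of each count with HT. Klk1, a kallikrein, was higher in HT (adjusted p = 3.34e-04), with no size given because 0 of 4 SC FC arrays were well above background. Prcp was lower at the brighter of its 2 identifiers by a log2 difference of -1.03 (adjusted p = 6.89e-05), while the other had means of 7.42 in SC HT and 7.59 in SC FC. Both calls were lost with slide, with Klk1 at an adjusted p of 0.0740 and Prcp at -0.22 (adjusted p = 0.667). HT against ST gave 7 of 21, 4 higher and 3 lower, against 21.5% of all, with Mme at -1.72 (adjusted p = 1.71e-05) and Thop1, an oligopeptidase, at -0.38 (adjusted p = 0.0231; with slide -0.75, adjusted p = 0.00428). With slide these 3 counts were 3, 3 and 4, while 3416, 4659 and 4704 of all 31395 were called. The calls kept in HT against FC were those of Agt, Agtr2 and Thop1.

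In CM mice, ST against FC gave 14 of 22, 8 higher and 6 lower, against 60.6% of all. HT against FC gave 16 of 21, 10 higher and 6 lower, against 57.8%, and HT against ST gave 11 of 21, 6 higher and 5 lower, against 56.3%. Without the FC array of O54 the count for HT against FC was 10. Mme was higher in ST than in FC by 2.74 log2 units (adjusted p = 1.08e-09; with slide 2.22, adjusted p = 0.0171). In CM FC 1 of its probes was well above background on 2 of 3 arrays and the other on 3 of 3. Agtr1b, the second type 1 receptor gene of mice, was called higher in HT than in ST (adjusted p = 6.85e-05; with slide 0.0331). No size is given for it, because 0 of 4 CM ST and 3 of 4 CM HT arrays were well above background. No FC or ST array of either diet was, so the filter on dim probes may have kept Agtr1b through HT alone. Nothing is read from this call. Atp6ap2 was higher in HT than in ST by 0.87 (adjusted p = 6.28e-09; with slide 0.58, adjusted p = 0.00655). With slide the 3 counts were 1, 6 and 6, while 996, 5028 and 6081 of all 31395 were called. In these mice each region lay on a slide of its own, so region and slide cannot be told apart from the CM arrays alone.

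A list of 8 linked genes, all of which passed the filter, held receptor partners, kinin genes and peptidases. In FC 2 of 8 were called lower in CM, against 28.6% of all identifiers called: Mtus1, which encodes a protein that binds the type 2 receptor (-0.33, adjusted p = 0.0340), and Rnpep, an aminopeptidase (-0.27, adjusted p = 0.0141). The Mtus1 call was lost without L54 (adjusted p = 0.0927), L56 (adjusted p = 0.158), O54 (adjusted p = 0.127) or O56 (adjusted p = 0.113). In ST 1 of 8 was called, against 9.82% of all. This was Rnpep, higher in CM (0.33, adjusted p = 0.0220), but not without O54 (adjusted p = 0.0530) or O56 (adjusted p = 0.0517). With slide 0 of 8 and 0 of all 31395 were called for diet in FC and in ST. Mtus1 was higher in ST than in FC by 0.79 in SC mice (adjusted p = 0.00214; with slide 0.82, adjusted p = 0.00153; without the ST array of L56 0.52, adjusted p = 0.0371) and higher in HT than in FC by 0.78 (adjusted p = 4.66e-05; with slide 0.86, adjusted p = 0.0107). HT against FC called 4 of 8, against 43.2% of all. The others were Agtrap, a partner of the type 1 receptor (0.53, adjusted p = 0.0203; without the FC array of L56 0.32, adjusted p = 0.212), Nr3c2, the mineralocorticoid receptor gene (-0.62, adjusted p = 0.00223), and Rnpep (-0.45, adjusted p = 3.26e-04). With slide the calls of Mtus1 and Rnpep were kept (Rnpep adjusted p = 0.0463), and those of Agtrap (0.60, adjusted p = 0.227) and Nr3c2 (-0.47, adjusted p = 0.305) were lost.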

How the data were processed

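Per the file headers, each scanner file gives spot intensity and, as other columns, flags of the scanner software (Feature Extraction 10.7.3.1, mm9). The deposited log2 table was made by the authors with limma. It was rebuilt from the median intensity by their steps: normexp without offset, quantile normalisation of 23 arrays, probes kept above 1.1 times the 95th percentile of 308 negative controls on at least 4 arrays, and averaging per identifier. The largest difference from the deposited table was 5.00e-09. limma 3.58.1 (R 4.3.3, statmod 1.5.0) fitted 6 group means, weighting each array and treating arrays of a mouse as correlated (-0.0398), with Benjamini-Hochberg adjustment over 31395 identifiers. Deviations from the group mean correlated between arrays of the same mouse with a median r of 0.0236 over 22 pairs of regions. The code was checked on simulated data. For arrays, their number limits the precision.

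The members and lists were chosen with earlier results of these data known, and the weight estimator after values were seen. Named genes are the 6 members, genes of the wider lists with an adjusted p under 0.05 (at most 4 per direction and comparison), the 3 genes with the highest Pearson r per member, the 5 neighbours of Mas1 on each side and Mas-related receptors. The tables do not give the exon or UTR in mm9, so it is not stated. Slide, block, weights, signal, normalisation, filter and single arrays were varied.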

Additional observations from a re-analysis of the deposited data

Results flagged for a closer look

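Among 30 groups of 4 arrays examined (6 genes in 5 groups), 3 had an array far from the others, and chance gives about 1 in 20 such groups. All were of Ace: the ST array of SC mouse L58 had a log2 signal of 9.63, the ST array of CM mouse O58 had 9.70, and the HT array of SC mouse L54 was low at 7.58. That array and the HT array of O58 had the lowest summed hypothalamic markers in HT (14.96 and 15.58). The choroid plexus markers on the O58 array stand in the account of Ace, and the part of either set of markers was not tested.

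The diet effect of Ren1 differed between FC and ST by 1.42 log2 units (limma, adjusted p = 3.66e-04). With slide as a fixed term this was -0.25 and did not pass the test.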

How the results depend on the processing

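For 87 results and 20 alternatives apart from single arrays, 1331 of 1554 values kept their direction and side of the threshold or stayed within 1.5 times (counts) or 1 SD (untested values) of the reported value. Most of the others came from the 3 alternatives with slide in the model. Signal near background limits Agtr2 outside HT, Ren1 and Agtr1a in SC FC and Mas1 in CM HT, and 3 or 4 arrays per group limit the precision. The values that follow, in log2 units or as list counts with the reported count in brackets, are those whose sign turned and, for the diet and SC comparisons of the 6 genes and the counts, those that otherwise moved. Calls of single genes in CM mice that were only lost are not all listed. The cause was not tested.

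With slide as a fixed block, the diet difference in FC was -0.27 for Ace, 0.72 for Agtr1a, 0.79 for Agtr2, 0.10 for Ren1 and 0.28 for the brighter Prcp identifier. In ST the diet differences were -0.084 for Agtr1a, -0.20 for Agtr2 and 0.36 for Ren1. In HT the diet differences were 0.42 for Ace, -0.52 for Agtr1a, -0.14 for Agtr2 and -0.025 for Ren1. ST minus FC in SC mice was 1.06 for Ace, 1.35 for Agtr1a and 0.17 for Agtr2, HT minus FC in SC mice was 0.12 for Ace and 0.025 for Ren1, and HT minus ST in SC mice was -0.070 for Ren1. Of these values, ST minus FC of Agtr1a alone passed the test. ST minus FC in CM mice was -0.83 for Agtr2 and 0.35 for Ren1, HT minus FC in CM mice was -0.10 for Agtr1a, and HT minus ST in CM mice was -0.45 for Ren1. Between FC and ST the diet effects differed by -0.25 for Ren1. The list count was 0 (5 before) for the diet difference in FC, 3 (13 before) for HT minus FC in SC mice, 4 (7 before) for HT minus ST in SC mice and 1 (14 before) for ST minus FC in CM mice. Further list counts were 6 (16 before) for HT minus FC in CM mice, 6 (11 before) for HT minus ST in CM mice and 0 (5 before) for the diet difference in FC minus that in ST. With slide as the random block in place of the mouse, the diet difference in FC was 0.026 for Agtr1a and 0.081 for Agtr2, ST minus FC in SC mice was 1.20 for Ace, and HT minus FC in SC mice was 0.875 for Ace, neither of them called. ST minus FC in CM mice was -0.022 for Agtr2. The list count was 1 (5 before) for the diet difference in FC, 2 (4 before) for ST minus FC in SC mice, 7 (13 before) for HT minus FC in SC mice and 1 (5 before) for the diet difference in FC minus that in ST. Within the slide that held both diets of a region (1 SC and 4 CM arrays, no test), the ST diet differences were -1.24 for Agt, -0.013 for Agtr1a, -0.45 for Agtr2 and 0.40 for Ren1. In HT the diet differences were -1.10 for Agtr1a and 0.035 for Ren1.

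Mice of the 2 diets share a number, which is no pairing by the labels. Deviations from the group mean on arrays with the same number had a median r of -0.0637 over 11 pairs. With the mouse number as a fixed replicate block together with slide, the diet difference in FC was -0.33 for Ace, 0.74 for Agtr1a, 0.82 for Agtr2, 0.092 for Ren1 and 0.29 for the brighter Prcp identifier. In ST the diet differences were -0.079 for Agtr1a, -0.21 for Agtr2 and 0.36 for Ren1. In HT the diet differences were 0.39 for Ace, -0.50 for Agtr1a, -0.14 for Agtr2 and -0.028 for Ren1. ST minus FC in SC mice was 1.09 for Ace, 1.40 for Agtr1a and 0.16 for Agtr2, HT minus FC in SC mice was 0.15 for Ace and 0.025 for Ren1, and HT minus ST in SC mice was -0.076 for Ren1, with ST minus FC of Agtr1a alone past the threshold. ST minus FC in CM mice was -0.87 for Agtr2 and 0.37 for Ren1, HT minus FC in CM mice was -0.082 for Agtr1a, and HT minus ST in CM mice was -0.47 for Ren1. Between FC and ST the diet effects differed by -0.27 for Ren1. The list count was 0 (5 before) for the diet difference in FC, 3 (13 before) for HT minus FC in SC mice, 4 (7 before) for HT minus ST in SC mice and 1 (14 before) for ST minus FC in CM mice. Further list counts were 5 (16 before) for HT minus FC in CM mice, 5 (11 before) for HT minus ST in CM mice and 0 (5 before) for the diet difference in FC minus that in ST. With the mouse number as a fixed replicate block, the diet difference in FC was -0.012 for Agt.

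Without array weights, the diet difference in FC was -0.021 for Agt, the ST diet difference was -0.057 for Mas1, and ST minus FC in SC mice was 1.18 for Agtr1a and passed the test. The list count was 1 (5 before) for the diet difference in FC, 9 (14 before) for ST minus FC in CM mice, 9 (16 before) for HT minus FC in CM mice and 3 (5 before) for the diet difference in FC minus that in ST. With array weights by REML, ST minus FC in SC mice was -1.04 for Mas1 and passed. With only the arrays of the regions compared, the diet difference in FC was 0.64 for Ace and passed. There ST minus FC in SC mice passed for Mas1 (-1.0) and Agtr1a (1.13), and was lost for Agt (1.66) and Ace (1.20). With the scanner's processed signal minus the 75th percentile, the diet difference in FC was 0.94 for Ace (now called), 0.12 for Agtr1a and 0.60 for Agtr2, the diet difference in HT was -1.91 for Mas1, and ST minus FC in SC mice was 0.31 for Agtr2 and 1.17 for Ren1 (now called). ST minus FC in CM mice was -0.21 for Agtr2. Without the filter on dim probes, ST minus FC in SC mice was 1.60 for Agt and was not called. The list count was 3 (5 before) for the diet difference in FC and 2 (4 before) for ST minus FC in SC mice. With the study's thresholds, the list count was 1 (5 before) for the diet difference in FC. With 1 value per probe name, the ST diet difference of Mas1 was -0.058. With a normexp offset of 50, the diet difference in HT was -0.90 for Mas1, ST minus FC in SC mice was -0.98 for Mas1 (now called), and HT minus FC in SC mice was -3.27 for Mas1. HT minus ST in SC mice was -2.28 for Mas1. The list count was 1 (0 before) for the diet difference in ST. With the mean spot signal, ST minus FC in SC mice was 0.71 for Ren1 and passed. With quantile normalisation within each region, HT minus ST in SC mice was 0.62 for Ren1 and passed. Without the ST arrays of L52 (hypothalamic markers) and O58 (choroid plexus markers), an alternative chosen after seeing the data, the diet difference in FC was 0.64 for Ace and passed, the ST diet difference was -0.14 for Ace, and ST minus FC in SC mice was 1.24 for Agt, no longer past the threshold, and 0.76 for Ren1, now past it.

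Leaving out 1 array at a time gave a diet difference in FC of -0.60 to 0.59 for Agt (sign turned without L52, L56 or O56) and -0.44 to 0.15 for Agtr1a (without L56), with 3 to 6 identifiers called (3 without L56, L58 or O54). The diet difference in ST was -0.26 to 0.34 for Mas1 (sign turned without L52, L56 or O56), -1.07 to 0.37 for Agt (called without L54, sign turned without L56) and -0.047 to 0.38 for Ace (sign turned without O58). The identifiers called in ST numbered 0 to 4, with 4 without L54 and 1 without L56 or L58. The HT diet difference was -1.74 to -0.97 for Mas1. For Agt it was -0.26 to 0.11 and for Agtr1a -0.31 to 0.27, so the sign turned for both. In SC mice ST minus FC was -1.21 to -0.62 for Mas1 (called without ST L54), 0.70 to 2.23 for Agt, 1.03 to 1.33 for Ace, 0.85 to 1.44 for Agtr1a (called without ST L54 or FC L56) and 0.55 to 0.76 for Ren1 (called without ST L52 or FC L52). The list had 1 to 7 identifiers called there, with 2 without FC L54 or FC L56, 7 without ST L54 and 1 without ST L56. HT minus FC was -4.26 to -3.48 for Mas1 (lowest without HT L56) and 0.82 to 1.09 for Ace (call lost without FC L56), and HT minus ST was -3.26 to -2.49 for Mas1 (lowest without HT L56). In CM mice 10 to 17 identifiers were called for HT minus FC, with 10 without FC O54.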

Other observations

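The Mas-related receptors, the family of Mas1 named for their likeness to it and known mainly from sensory neurons, had 24 names on the array, of which 10 passed the filter. In SC mice HT against FC called 3 of these 10, 2 higher and 1 lower, against 43.2% of all identifiers. HT against ST called 1 of 10, higher in HT, against 21.5% of all. With slide each of these counts was 1. Mrgpre was higher in HT than in FC by 0.99 log2 units in SC mice (limma, adjusted p = 4.13e-04; with slide 1.16, adjusted p = 0.0304) and higher in HT than in ST by 1.24 (adjusted p = 1.66e-04; with slide 1.27, adjusted p = 0.00552). Its SC group means were 9.16 ± 0.39 in HT, 8.17 ± 0.26 in FC and 7.98 ± 0.25 in ST (SD, n = 4 each). Mrgpre was thus high in the region where Mas1 was low. For diet, 2 of the 10 were called in FC, against 28.6% of all identifiers, and 1 of 10 in ST, against 9.82% of all. Mrgprb4 was called higher in CM FC (adjusted p = 3.17e-05) and lower in CM ST (adjusted p = 0.0174), and Mrgpra2b higher in CM FC (adjusted p = 0.0445). No sizes are given, because Mrgprb4 was well above background on 1 of 4 SC FC and 2 of 4 CM ST arrays and Mrgpra2b on 0 of 4 SC FC arrays. With slide none of these was called.

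A probe named for Ren2, a renin gene that C57BL/6 mice are known to lack, gave signal on all 23 arrays. Its log2 signal correlated with that of Ren1 with Pearson r = 0.52 over these arrays, which share slides and mice. Whether this probe reads the Ren1 transcript was not tested.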
